A study of Mus musculus with 2 samples.

Results

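The 6 genes described here are the mouse receptors for the Fc part of immunoglobulin G, Fcgr1, Fcgr2b, Fcgr3 and Fcgr4, and 2 adaptors, Fcer1g and Tyrobp. They were taken by symbol from a table of 13774 genes, which held all 6. Fc gamma receptors let leukocytes sense antibody-coated targets. Fcgr1, Fcgr3 and Fcgr4 encode activating receptors, which have no signalling motif of their own and work through the Fc receptor gamma chain encoded by Fcer1g. That chain carries an immunoreceptor tyrosine-based activation motif (ITAM), which Src-family kinases phosphorylate and Syk then binds. Fcgr2b encodes the inhibitory receptor, whose tail carries an inhibitory motif (ITIM) that recruits the phosphatase SHIP1, encoded by Inpp5d. Tyrobp encodes DAP12, an ITAM adaptor for receptors such as TREM2. In macrophages, monocytes and dendritic cells the ratio of activating to inhibitory receptors is known to set how strongly immune complexes act. B cells are known to carry FcgRIIb as their Fc gamma receptor.

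The table held 2 libraries of single cells, one labelled normal endothelial cells (NEC) and one labelled tumor endothelial cells (TEC). Both came from female C57BL6/J mice, 8 weeks old, that carried Cdh5Cre-ERT2:ZSGreenl/s/l and had been given tamoxifen, so that Cre under the endothelial Cdh5 promoter switched on the green protein ZSGreen. Mice received 1000000 cells of EO771, a syngeneic mammary tumor line, in the mammary fat pad. After about 3 weeks tumors (TEC) or normal counterpart mammary glands (NEC) were taken, and live ZSGreen+ cells were sorted for the 10X Chromium single-cell 3' kit. The labels do not give the number of animals behind a library or say whether animals were pooled.

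The NEC library had 1806 cells with a median of 2263 unique molecular identifiers (UMIs, 1 per captured transcript) and the TEC library 1000 cells with a median of 8596. The labelled cell type was mostly missing from this table: 9 endothelial markers summed to 33.2 CPM (UMI counts of a gene for each 1000000 UMIs of the summed cells) in NEC, with Cdh5, Kdr, Emcn and Robo4 at 0, and to 59.5 CPM in TEC, with Cldn5 and Tek at 0. The cells in the table may not be all the cells of each library. Most cells carried leukocyte markers and are described here by cluster. Macrophage or monocyte-like cells numbered 303 of 1794 kept cells in NEC and 597 of 997 in TEC, dendritic-like cells 37 and 134, T or NK-like cells 674 and 47, and B-like cells 643 and 1. The libraries shared 2 barcodes. Leaving those cells out gave a difference of -5.17 percentage points in the Fcgr2b share described below, as with them. Each group is 1 library, so no test between groups is possible, the spread between animals is unknown, and all intervals are 95% counting intervals. A gene is called higher or lower when its CPM ratio between libraries was at least 2 in either direction with an interval that left out 1.

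The signalling motifs of the members are shown to set the activating adaptors beside the inhibitory receptor. They were read from the GENCODE coding sequences on GRCm38, 5′ to 3′ on the coding strand, with the tyrosine codons in capitals. The Fcer1g motif spans codons 65 to 79 in exons 4 and 5 (chr1:171229889-171230072, minus strand, an intron included). The Tyrobp motif spans codons 92 to 106, also in exons 4 and 5 (chr7:30415670-30417382, plus strand, an intron included). The Fcgr2b motif spans codons 317 to 322 in exon 8 of 8 (chr1:170961071-170961088, minus strand).
Fcer1g ITAM: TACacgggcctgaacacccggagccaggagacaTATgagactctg
Tyrobp ITAM: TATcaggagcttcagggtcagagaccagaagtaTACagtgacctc
Fcgr2b ITIM: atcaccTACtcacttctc
Both ITAM stretches are 45 bases long with 2 tyrosine codons, and the ITIM stretch is 18 bases long with 1.

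Among the members, 4 lie on chromosome 1. These are Fcgr2b (chr1:170958617-170976547), Fcgr4 (chr1:171018920-171029761), Fcgr3 (chr1:171051174-171064935) and Fcer1g (chr1:171229572-171234365). Fcgr1 lies at chr3:96282909-96293969 and Tyrobp at chr7:30413760-30417585. Fcgr2b and Fcgr3 are close relatives, and their transcripts share an exact run of 129 bases. Within the last 500 bases, where 3' reads gather, no pair of the 4 receptor transcripts shared a run of more than 13 bases, and Fcgr2b and Fcgr3 shared 9. Since each captured molecule counts once whatever its length, UMIs are compared between receptors below without a length correction.

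In macrophage or monocyte-like cells the receptors and Fcer1g were higher in the tumor library, and Fcgr1 by far the most. Fcgr1, the high-affinity activating receptor, was at 18.8 CPM in NEC (22 UMIs, interval 11.8 to 28.5) and at 670 CPM in TEC (3437 UMIs, 647 to 692), a ratio of 35.6 (23.5 to 56.9). Fcgr4, an activating receptor for IgG2a and IgG2b, was at 34.2 CPM in NEC (40 UMIs) and 153 CPM in TEC (786 UMIs), a ratio of 4.48 (3.26 to 6.32). Fcgr2b was at 134 CPM in NEC (157 UMIs) and 443 CPM in TEC (2275 UMIs), a ratio of 3.30 (2.81 to 3.91). So the inhibitory receptor was higher too, and its ratio lay between those of the activating receptors. Fcgr3, the low-affinity activating receptor, was at 280 CPM in NEC (327 UMIs) and 614 CPM in TEC (3149 UMIs), a ratio of 2.20 (1.96 to 2.47). Its ratio was the smallest among the receptors and did not reach 2 under TMM-type scaling, where it was 1.85.

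Fcer1g, the shared partner of the activating receptors, was at 1503 CPM in NEC (1759 UMIs, 1434 to 1575) and 3991 CPM in TEC (20484 UMIs, 3936 to 4046), a ratio of 2.66 (2.53 to 2.79). Tyrobp was the most abundant member in NEC, at 2242 CPM (2623 UMIs), and stood at 3026 CPM in TEC (15530 UMIs). Its ratio of 1.35 (1.30 to 1.41) did not reach the size set for a call. On the log2 scale the ratio of Tyrobp was 0.43, beside a median of 0.39 over the 6708 genes measured in these cells, while Fcer1g was at 1.41, Fcgr3 at 1.13, Fcgr2b at 1.72, Fcgr4 at 2.16 and Fcgr1 at 5.15. TMM-type scaling moved that median by -0.25. By the size rule 5 of the 6 members were higher and none was lower, in a class where 23.6% of genes were higher and 6.57% lower.

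**Figure D1:**
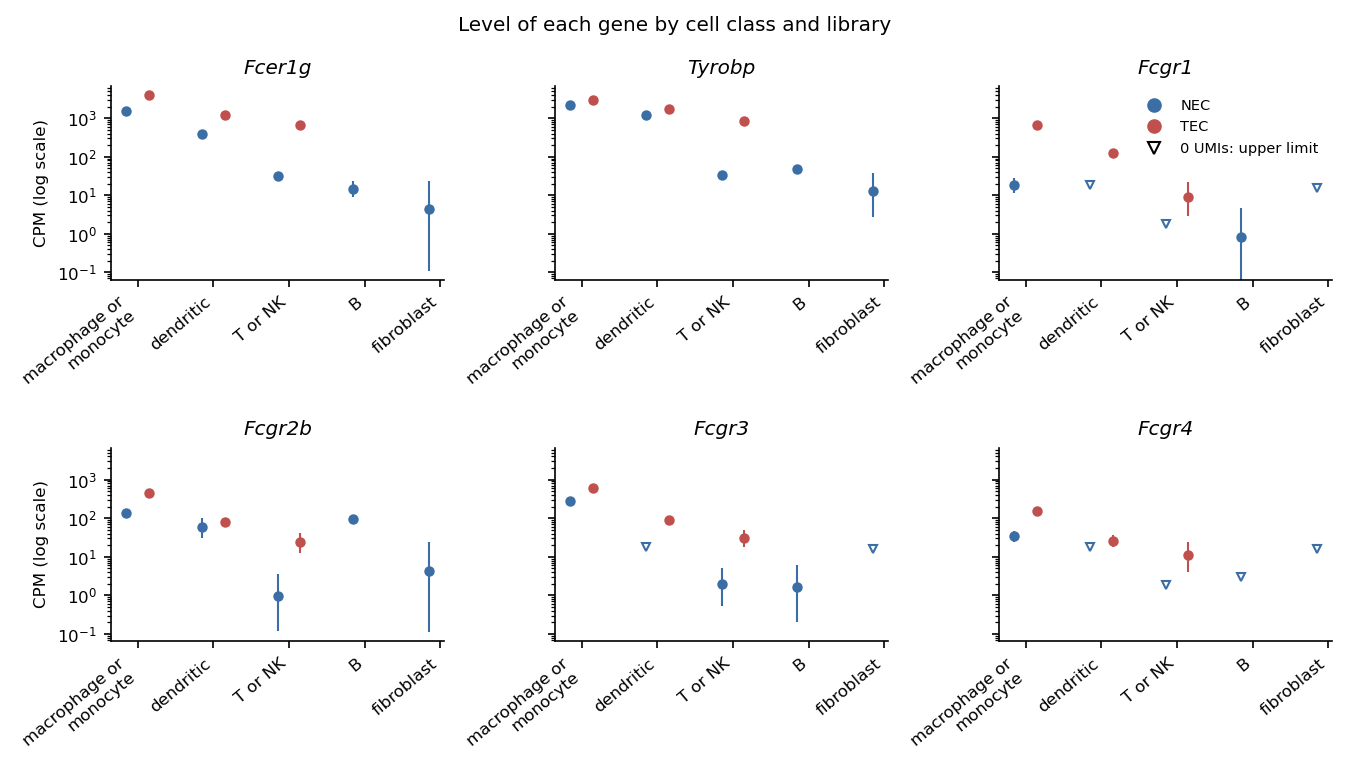
CPM of each gene (log axis) in 5 cell classes, NEC in blue and TEC in red, with 95% counting intervals and open triangles for the upper limit where no UMI was seen (classes under 20 cells are not drawn). Fcer1g and Tyrobp stand above the receptors in each class of myeloid cells, and Fcgr2b alone is at a myeloid level in B-like cells (94.1 CPM).

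These ratios compare different clusters of cells in the 2 libraries. Of the NEC macrophage or monocyte-like cells, 94 lay in a cluster led by Retnla and Cd209f with 12 macrophage markers raised. Another 95 lay in one led by Ace and Treml4 with 12 monocyte markers raised. The other large NEC cluster, of 104 cells, was led by Lyz1 and Fcrls and had mixed markers. It raised 2 macrophage, 3 monocyte and 3 conventional dendritic markers, and its name rests on counting the first 2 kinds together. Of the TEC cells, 581 lay in a cluster led by Ccl12 and Ms4a7. The cells also differed in depth, with a median of 3160 UMIs in NEC and 7603 in TEC, and 92 of 597 TEC cells (15.4%) held a Cd3 UMI against 11 of 303 (3.63%) in NEC. The summed level of 11 T-cell markers in the table was 197 CPM in NEC, with Cd4 and Cd8a at 0, and 503 CPM in TEC. Without the cells that hold a Cd3 UMI the ratio was 36.1 for Fcgr1, 3.49 for Fcgr2b, 2.35 for Fcgr3, 4.63 for Fcgr4, 2.81 for Fcer1g and 1.43 for Tyrobp. With every cell thinned to 1000 UMIs it was 53.4 for Fcgr1, 3.50 for Fcgr2b, 2.41 for Fcgr3, 2.34 for Fcgr4, 2.95 for Fcer1g and 1.46 for Tyrobp. The calls of all 6 members were the same under both settings.

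Narrower comparisons moved the sizes more than the directions. With the Retnla and Cd209f cells of NEC alone set against the Ccl12 and Ms4a7 cells of TEC, the Fcgr2b ratio was 1.96 and the Fcgr3 ratio 1.69, both short of a call, while Tyrobp reached 2.07. Fcgr4 depended most on the monocyte-like Ace and Treml4 cells, which held 31 of its 40 NEC UMIs. Without that cluster the Fcgr4 ratio was 14.4 (7.53 to 31.6). With at least 1000 genes and at most 5% mitochondrial UMIs per cell it was 31.0, from only 89 NEC and 444 TEC cells. The Fcgr1 ratio lay between 29.96 and 72.1 under all 16 other settings tried.

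**Figure D2:**
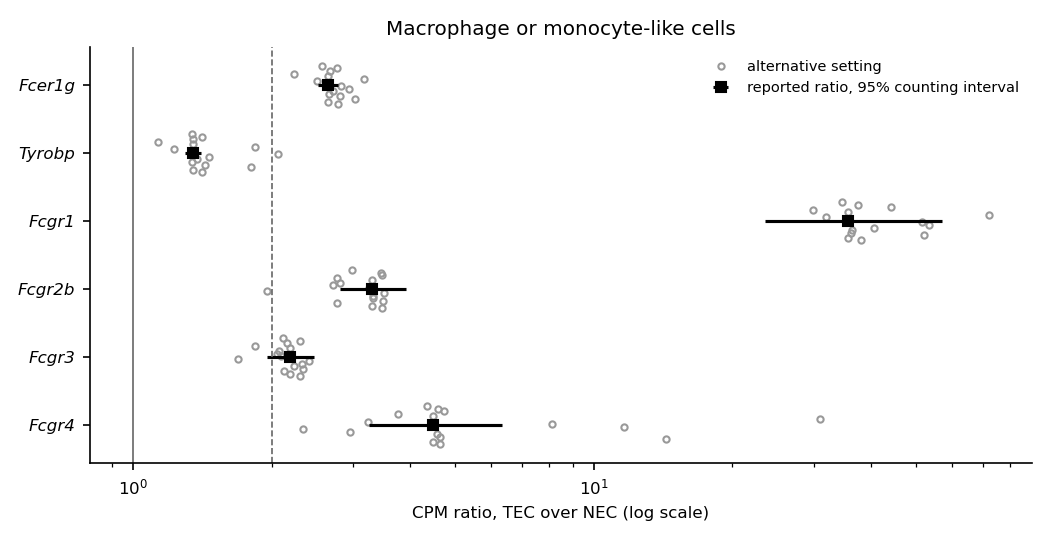
CPM ratio of TEC over NEC (log axis) in macrophage or monocyte-like cells for each gene, as black squares with 95% counting intervals, with the ratio under every other processing setting as grey rings. The dashed line marks 2. Fcgr1 lies far to the right at 35.6, Tyrobp lies left of the line at 1.35, and the rings of Fcgr4 spread from 2.34 to 31.0.

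The Ace and Treml4 cluster held cells of both libraries, 95 from NEC and 14 from TEC. Ace and Treml4 mark non-classical, patrolling monocytes. Within it Fcer1g stood at 1984 CPM in NEC and at 3899 CPM in TEC, a ratio of 1.97 (1.73 to 2.23), which missed the size for a call. Fcgr2b was at 63.6 CPM in NEC (21 UMIs) and 215 CPM in TEC (23 UMIs), a ratio of 3.38 (1.79 to 6.42). Fcgr4 stood at 93.9 CPM in NEC and at 112 CPM in TEC, a ratio of 1.195 (0.559 to 2.39). Fcgr1 stood at 33.3 CPM in NEC and at 103 CPM in TEC from 11 UMIs each, a ratio of 3.09 (1.21 to 7.85), with 54.6% of the TEC UMIs in 1 cell. So within patrolling monocyte-like cells the Fcgr2b ratio was like that of the whole class, and the Fcgr1 and Fcgr4 ratios were nearer to 1.

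The Ccl12 and Ms4a7 cluster held 10 NEC cells beside its 581 TEC cells. In those 10 cells Fcgr2b was at 434 CPM, with 50% of its 18 UMIs in 1 cell, and in the TEC cells it was at 448 CPM, a ratio of 1.03 (0.653 to 1.75). Fcgr1 was at 72.3 CPM in the NEC cells, from 3 UMIs, and at 685 CPM in the TEC cells, a ratio of 9.47 (3.24 to 46.0). Fcgr3 was at 169 CPM (7 UMIs) and 618 CPM, a ratio of 3.66 (1.78 to 9.12). Fcer1g was at 1662 CPM and 4003 CPM, a ratio of 2.41 (1.90 to 3.10). At this number of cells the Fcgr2b levels could not be told apart and the Fcgr1 and Fcgr3 levels differed beyond counting error.

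The balance of receptors was measured as the share of each gene among the UMIs of the 4 Fcgr genes. NEC macrophage or monocyte-like cells held 546 such UMIs, of which Fcgr3 made up 59.9%, Fcgr2b 28.8% (24.99 to 32.75), Fcgr4 7.33% and Fcgr1 4.03%. TEC cells held 9647, of which Fcgr1 made up 35.6%, Fcgr3 32.6%, Fcgr2b 23.6% (22.7 to 24.4) and Fcgr4 8.15%. The Fcgr2b share was 5.17 percentage points lower in TEC (difference -5.17, interval -9.26 to -1.31). As activating UMIs per inhibitory UMI, the balance was 2.48 (2.05 to 3.002) in NEC and 3.24 (3.09 to 3.398) in TEC. The share held by Fcgr1 differed far more. Fcgr3 led among the activating receptors in NEC and Fcgr1 in TEC. Over 14 other settings the Fcgr2b difference ran from -13.4 to -4.43 points. The smallest difference, with every cell thinned to 1000 UMIs, had an interval that includes 0 (-12.98 to 3.25). Thinning leaves fewer Fcgr UMIs and so a wider interval, and this setting could not tell the difference from 0.

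Within a library the share differed by as much as between libraries. Among NEC clusters Fcgr2b made up 36.9% (29.97 to 44.25) of Fcgr UMIs in the Retnla and Cd209f cells, 27.1% (20.8 to 34.2) in the Lyz1 and Fcrls cells and 14.4% (9.13 to 21.1) in the Ace and Treml4 cells. The macrophage-like end of this order was thus the more inhibitory and the monocyte-like end the more activating, with the cells of mixed markers between. Against the Ace and Treml4 cells, the Retnla and Cd209f cells had 3.603-fold more Fcgr2b (2.18 to 6.19), 7.07-fold less Fcgr4 (2.498 to 27.56) and 2.57-fold less Tyrobp (2.30 to 2.87). Fcgr4 made up 21.2% of Fcgr UMIs in the Ace and Treml4 cells but 2.14% in the Retnla and Cd209f cells and 0.553% in the Lyz1 and Fcrls cells. In the 14 TEC cells of the Ace and Treml4 cluster the Fcgr2b share was 24.5% (16.2 to 34.4), an interval that overlaps that of the NEC cells of the cluster. In the 10 NEC cells of the Ccl12 and Ms4a7 cluster it was 18 of 32 UMIs (56.3%, 37.7 to 73.6).

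The TEC cells of the Ccl12 and Ms4a7 cluster fell into 4 groups, drawn after these data had been seen and without the member genes. One of 213 cells was led by Arg1 and Cxcl3, one of 177 by Ccl8 and C1qa, one of 134 by the interferon-induced Ifit3 and Cxcl10, and one of 57 by Nkg7 and Cd3g, genes of T and NK cells. The Ifit3 and Cxcl10 cells stood apart. Fcgr1 was at 1447 CPM there, at 504.3 CPM in the Arg1 cells, at 506 CPM in the Ccl8 cells and at 342 CPM in the Nkg7 cells. Fcgr2b was highest in the Arg1 cells, at 579 CPM, with 453 CPM in the Ccl8 cells, 327 CPM in the Ifit3 cells and 280 CPM in the Nkg7 cells. Against the Arg1 cells, the Ifit3 cells had 2.87-fold more Fcgr1 (2.64 to 3.12) and 3.21-fold more Fcgr4 (2.57 to 4.02), and 1.77-fold less Fcgr2b (1.57 to 2.01) and 1.41-fold less Fcgr3 (1.27 to 1.56). The Fcgr2b and Fcgr3 differences exceeded counting error but not the size set for a call.

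Fcgr1 made up 57.1% of Fcgr UMIs in the Ifit3 and Cxcl10 cells and Fcgr2b 12.9% (11.6 to 14.2), the lowest share of the 4 groups. Fcgr2b made up 30.4% (28.9 to 32.1) in the Arg1 and Cxcl3 cells, 25.2% in the Ccl8 and C1qa cells and 25.3% in the Nkg7 and Cd3g cells. Fcgr4 separated the groups differently, with 71.5 CPM in the Arg1 cells, 211 CPM in the Ccl8 cells and 229 CPM in the Ifit3 cells, while no Fcgr1 difference was detected between the Arg1 and Ccl8 cells (ratio 1.00, 0.911 to 1.11). The adaptors varied less, with Tyrobp at 3385 CPM in the Ifit3 cells and 3287 CPM in the Arg1 cells, and Fcer1g at 4894 CPM and 3684 CPM. When the cluster was divided more finely, the lowest Fcgr2b share of any group was 13.2% or 13.4% and the highest 30.7% or 31.5%. The Nkg7 and Cd3g cells had a median of 9735 UMIs against 7256 to 7994 in the other groups. Without them the Fcgr4 ratio between libraries was 4.65 and the difference in Fcgr2b share -5.30 points.

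**Figure D3:**
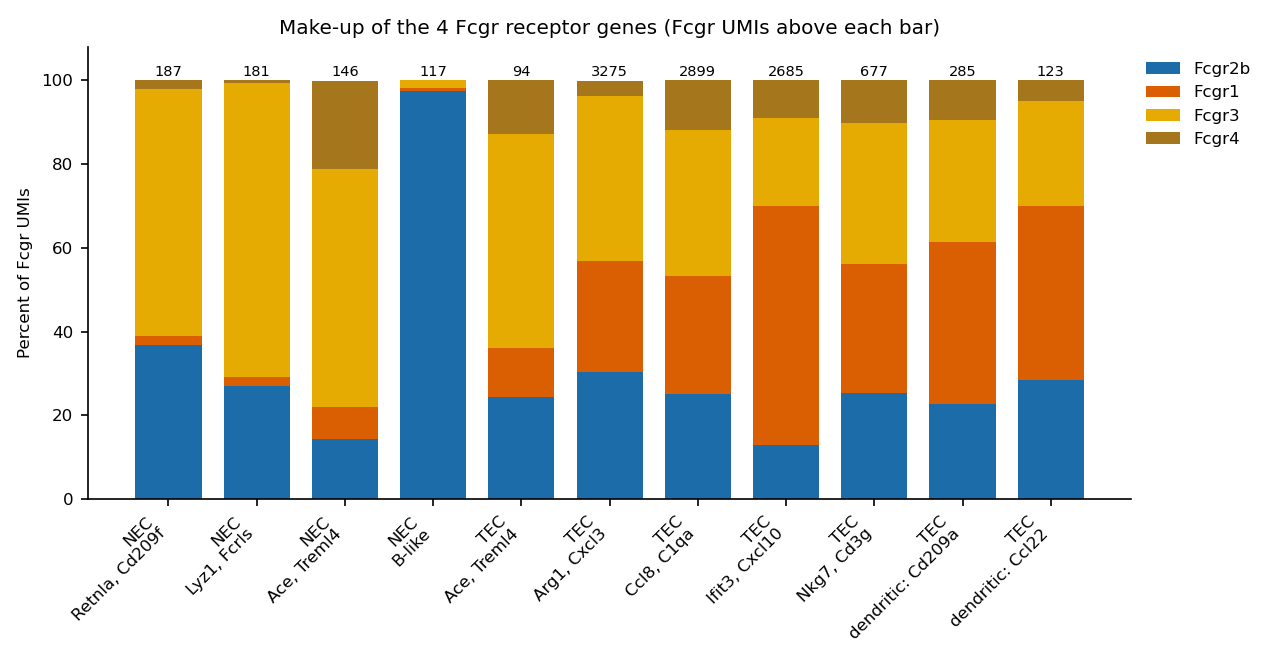
Percent of Fcgr UMIs held by Fcgr2b (blue), Fcgr1 (orange), Fcgr3 (yellow) and Fcgr4 (brown) in NEC and TEC cell groups named by leading genes, with the number of Fcgr UMIs above each bar. Fcgr2b fills the bar of B-like cells (97.4%) and is smallest in the TEC Ifit3 and Cxcl10 cells (12.9%), where Fcgr1 takes 57.1%.

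The promoters of Fcgr1 and Fcgr4 are shown because these 2 receptors were higher in the Ifit3 and Cxcl10 cells than in the Arg1 and Cxcl3 cells while Fcgr2b and Fcgr3 were lower. Against the Ccl8 and C1qa cells the Ifit3 and Cxcl10 cells had 2.86-fold more Fcgr1 (2.625 to 3.117). Any Fcgr4 difference between those 2 groups was within counting error (ratio 1.09, 0.919 to 1.29). RefSeq windows of 300 bases (250 before and 50 after the start, GRCm38.p6) were found for 5 of the 6 members. They were searched on both strands for the PU.1 core GAGGAA, the GAS element TTCNNNGAA and the ISRE core, which is GAAA, any 2 bases and GAAA again. No match overlapped another. PU.1 is the myeloid lineage factor, and GAS and ISRE elements are known to bind STAT and interferon regulatory factors. The stretches below are 120 bases on the strand of the gene, chr1:171018800-171018919 (plus) for Fcgr4 and chr3:96293976-96294095 (minus) for Fcgr1, with motif matches in capitals.
Fcgr4 promoter: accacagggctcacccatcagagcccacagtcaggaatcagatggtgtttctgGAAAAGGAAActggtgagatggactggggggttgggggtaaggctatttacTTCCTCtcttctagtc
Fcgr1 promoter: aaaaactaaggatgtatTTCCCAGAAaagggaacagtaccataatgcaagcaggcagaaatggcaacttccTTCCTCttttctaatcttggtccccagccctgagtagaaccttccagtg
Fcgr4 had 1 ISRE core, at -73 from the start, and 1 PU.1 core at -22 (read as TTCCTC). Fcgr1 had 1 GAS element at -109 and 1 PU.1 core at -55. Fcgr3 had a PU.1 core only, and the Fcgr2b and Fcer1g windows had 0 matches to any of the 3. Of 32851 windows, 28.3% held the PU.1 core, 8.30% the GAS element and 3.44% the ISRE core. A match is a run of letters and not a measured binding site.

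Cell by cell, the balance could be read in 28 of 303 NEC cells and 559 of 597 TEC cells, those with at least 5 Fcgr UMIs. The median number of Fcgr UMIs per cell was 1 in NEC (0 to 16) and 14 in TEC (0 to 77). The median Fcgr2b share of a cell was 31.0% in NEC (quartiles 0 and 40%) and 22.2% in TEC (10.8% and 36.4%). Fcgr2b was absent from 8 of the 28 NEC cells and from 56 of the 559 TEC cells, and it made up over 50% in 3 and in 46 of them. Among TEC groups the median was 28.6% in the Arg1 and Cxcl3 cells, 25% in the Ccl8 and C1qa cells, 22.2% in the Nkg7 and Cd3g cells and 10.7% in the Ifit3 and Cxcl10 cells. So the lower share of the Ifit3 and Cxcl10 cells was spread over most of them, with 63 of 132 cells under 10% and 2 cells above 50%.

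**Figure D4:**
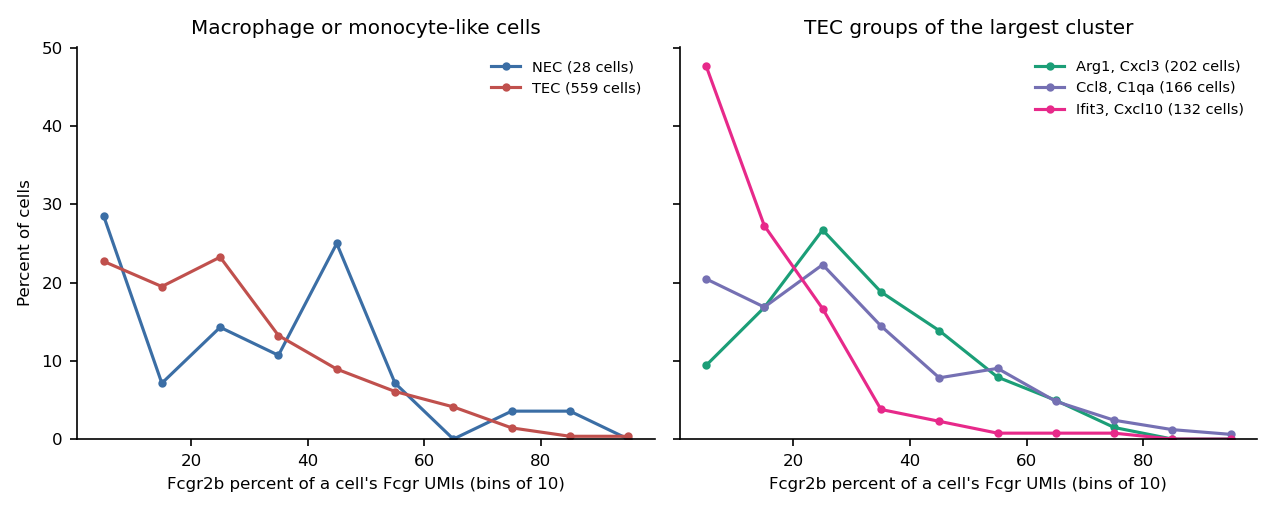
Percent of cells (vertical) by the Fcgr2b share of a cell's Fcgr UMIs in bins of 10 percentage points (horizontal), for cells with at least 5 Fcgr UMIs. Left, NEC (28 cells) against TEC (559 cells), right, 3 TEC groups of the Ccl12 and Ms4a7 cluster. The Ifit3 and Cxcl10 cells pile up at the low end, with 47.7% of them under 10%, against 9.41% of the Arg1 and Cxcl3 cells.

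With every cell thinned to 1000 UMIs, so that depth was equal, 24.1% of NEC macrophage or monocyte-like cells showed only activating receptor UMIs, 8.58% only Fcgr2b, 3.30% both and 64.0% neither. In TEC 47.4% showed only activating receptors, 7.54% only Fcgr2b, 25.1% both and 19.9% neither. In points, cells with neither kind differed most between the libraries. Before thinning the lowest cell held 1157 UMIs in NEC and 6376 in TEC. Thinning therefore does not make up for the lack of low-depth cells in TEC. The share of cells with Fcgr2b alone depended on the depth chosen, since at 500 UMIs it was 4.62% (2.55 to 7.63) in NEC and 9.05% (6.87 to 11.6) in TEC. In the Ifit3 and Cxcl10 cells 65.7% showed only activating receptors and 1.49% only Fcgr2b, against 38.5% and 11.3% of the Arg1 and Cxcl3 cells. In NEC 14.9% of the Retnla and Cd209f cells showed Fcgr2b alone, and 2.11% of the Ace and Treml4 cells.

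At that depth a Fcgr1 UMI was seen in 1.32% of NEC and 42.4% of TEC macrophage or monocyte-like cells (5.94% and 86.8% unthinned). For Fcgr2b the shares were 11.9% and 32.7% (31.4% and 87.3% unthinned), for Fcgr3 22.4% and 44.1% (50.2% and 94.6%) and for Fcgr4 4.62% and 11.6% (10.2% and 51.1%). As a background for free RNA, 0 of 674 NEC T or NK-like cells showed Fcgr2b when thinned, which allows a share of up to 0.445% (3 counts), and 2 did unthinned (0.297%, median depth 2826 UMIs). In the 47 TEC T or NK-like cells, at a median of 9407 UMIs, 0 did when thinned, which allows 6.38%, and 21.3% did unthinned. The Fcgr2b shares of the macrophage or monocyte-like cells lay above these backgrounds. For Fcgr1 the thinned NEC share came from 4 of 303 cells, and its interval (0.361 to 3.345%) reaches below 0.445%. Fcer1g was seen in 73.3% of NEC and 94.97% of TEC cells when thinned, and Tyrobp in 80.5% and 94.3%.

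The adaptors outnumbered the receptors in all groups of myeloid cells. NEC macrophage or monocyte-like cells held 8.03 adaptor UMIs (Fcer1g and Tyrobp together) per Fcgr UMI (7.34 to 8.79) and TEC cells 3.73 (3.65 to 3.82). Fcer1g alone stood at 4.52 UMIs per activating receptor UMI in NEC (4.05 to 5.06) and at 2.78 in TEC (2.71 to 2.85). So Fcer1g transcripts outnumbered those of the activating Fc receptors in both. Protein was not measured. Among NEC clusters the adaptor ratio was 12.9 in the Ace and Treml4 cells, 8.09 in the Lyz1 and Fcrls cells and 4.62 in the Retnla and Cd209f cells. In TEC it was 9.48 (7.66 to 11.9) in the Ace and Treml4 cells, and within the Ccl12 and Ms4a7 cluster it ran from 3.27 in the Ifit3 and Cxcl10 cells to 4.10 in the Nkg7 and Cd3g cells. The NEC value therefore depended on which clusters were counted, and without the Ace and Treml4 cells it was 6.24.

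The order of the 2 adaptors also differed. NEC cells held 0.671 Fcer1g UMIs per Tyrobp UMI (0.631 to 0.713) and TEC cells 1.32 (1.29 to 1.35). Tyrobp led in the NEC Ace and Treml4 cells (0.532 Fcer1g per Tyrobp) and the adaptors were about equal in the NEC Retnla and Cd209f cells (0.975, 0.851 to 1.12). Fcer1g led in the TEC Ccl8 and C1qa cells (1.52), the Ifit3 and Cxcl10 cells (1.45) and the Arg1 and Cxcl3 cells (1.12). In the Ace and Treml4 cluster, which both libraries share, the ratio was 0.532 in NEC and 0.880 in TEC (0.769 to 1.01).

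In dendritic-like cells the members were lower than in the macrophage or monocyte-like cells beside them. Fcer1g was at 383 CPM in NEC (77 UMIs) and 1223 CPM in TEC (1533 UMIs), a ratio of 3.20 (2.54 to 4.07). Tyrobp was at 1208 CPM and 1754 CPM, a ratio of 1.45 (1.27 to 1.67), short of a call. Fcgr2b was at 59.7 CPM in NEC, where 12 UMIs lay in 4 cells and 58.3% of them in 1, and at 79.8 CPM in TEC (100 UMIs), a ratio of 1.34 (0.733 to 2.68). The NEC cells held 0 UMIs of Fcgr1, Fcgr3 and Fcgr4, which at 3 counts allows up to 14.9 CPM each. The TEC cells held 161 Fcgr1 UMIs (129 CPM) and 114 Fcgr3 UMIs (91.0 CPM), at least 8.62-fold and at least 6.10-fold higher against that limit, and 33 Fcgr4 UMIs (26.3 CPM). In this class 18.5% of genes were higher and 4.54% lower.

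So Fcgr2b was the only Fcgr gene seen in NEC dendritic-like cells, with 12 of 12 UMIs, and made up 24.5% (20.4 to 29.0) of 408 in TEC, beside 39.5% for Fcgr1. In TEC the cluster led by Cd209a (74 cells) and the one led by Ccl22 (60 cells) had similar shares, 22.8% and 28.5%, with intervals that overlap. The Cd209a cells had 1.76-fold more Fcer1g (1.58 to 1.97) and 1.61-fold more Fcgr1 (1.14 to 2.29) than the Ccl22 cells. Macrophage markers summed to 129 CPM in the NEC dendritic-like cells, with C1qb, C1qc and Adgre1 among 7 of 14 at 0, and to 504.4 CPM in TEC, with Cbr2 and Lyve1 at 0, and their part in the member levels was not tested. When cells were gated one by one by their markers, 231 NEC and 306 TEC cells were called dendritic-like and the ratios turned round, to 0.431 for Fcer1g and 0.314 for Tyrobp. The dendritic values therefore hold for the clusters and not for any gate.

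In T or NK-like cells of NEC the members were low, with Fcer1g at 32.3 CPM and Tyrobp at 33.3 CPM, 2.15% and 1.49% of their macrophage levels, beside 0.299% for Lyz2 and 0.766% for Apoe. In TEC Fcer1g was at 683 CPM and Tyrobp at 838 CPM, ratios of 21.1 (16.2 to 27.9) and 25.2 (19.5 to 33.0), in a class where 21.7% of genes were higher and 14.4% lower. Those levels are 17.1% and 27.7% of the TEC macrophage levels, while Lyz2 was at 1.83% and C1qa at 0.755%. Over other settings the ratios ran from 16 to 102.6 and from 13.7 to 52.5, the highest with Leiden resolution 1.2. NK cells are known to use both adaptors. The 10 TEC cells of the class without a Cd3 UMI held Fcer1g at 2346 CPM and Tyrobp at 2995 CPM, against 263 and 293 CPM in the 37 cells with one. The NK gene Ncr1 was at 110 CPM in those 10 cells and 9.23 CPM in the other 37, and Gzma at 9787 and 372 CPM. In NEC the 44 cells without a Cd3 UMI held Fcer1g at 508 CPM and the 630 with one at 7.73 CPM, and Tyrobp was at 358 and 16.5 CPM. The adaptors were thus higher in the cells that lack Cd3 within each library. Of the 44 NEC cells, 13 held a Fcer1g UMI. Ncr1 and Prf1 were at 0 in these 44 cells, each with an upper limit of 36.7 CPM. Gzma was at 338.5 CPM (34 UMIs) in them and at 19.6 CPM in the 630, while Klrd1 was at 59.7 and 80.4 CPM. The difference between libraries was not confined to cells without Cd3. Among cells with a Cd3 UMI the TEC over NEC ratio was 34.03 (19.79 to 62.8) for Fcer1g and 17.77 (11.98 to 27.07) for Tyrobp. Among cells without one the ratios were smaller, at 4.621 (3.411 to 6.37) and 8.355 (5.912 to 12.14).

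The Fcgr genes were low in T or NK-like cells, all under the total of 50 UMIs set for a ratio. Fcgr3, the Fc receptor that NK cells are known to carry, was at 91.3 CPM in the 10 TEC cells without a Cd3 UMI (10 UMIs) and at 16.2 CPM in those with one (7 UMIs), 5.65-fold higher (1.94 to 17.5). Any Fcgr2b difference between them was within counting error, at 27.4 CPM (3 UMIs) and 23.1 CPM (10 UMIs). The 4 NEC Fcgr3 UMIs of the class all lay in cells without a Cd3 UMI.

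B-like cells of NEC showed the inhibitory receptor almost alone. Fcgr2b was at 94.1 CPM (114 UMIs, 77.6 to 113) in 643 cells, which is 70.1% (54.6 to 89.8) of the level in NEC macrophage or monocyte-like cells. The same cells held Lyz2 at 0.460%, Fcgr3 at 0.591% and Apoe at 15.3% of the macrophage level. Fcgr2b made up 114 of 117 Fcgr UMIs (97.4%, 92.7 to 99.5), beside 2 of Fcgr3, 1 of Fcgr1 and 0 of Fcgr4. The adaptors were low, with Fcer1g at 14.9 CPM and Tyrobp at 47.0 CPM. B-like cells thus held 114 of the 296 Fcgr2b UMIs of the kept NEC cells, and macrophage or monocyte-like cells 157. Over all kept cells Fcgr2b made up 42.7% of Fcgr UMIs in NEC and 24.4% in TEC, which had 1 B-like cell. Within macrophage or monocyte-like cells it made up 28.8% and 23.6%. The part of B-like cells in the whole-library difference was not tested.

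Cells outside the leukocyte classes set the floor. In 74 NEC fibroblast-like cells the 6 genes had 0 to 3 UMIs each, with Tyrobp highest at 12.9 CPM. A TEC cluster of 207 cells led by Rhox5, which no marker list named, held Fcer1g at 109 CPM, Tyrobp at 117 CPM, Fcgr2b at 19.9 CPM and Fcgr1 at 11.2 CPM. As shares of the TEC macrophage levels these were 2.72% for Fcer1g, 3.85% for Tyrobp, 4.49% (3.84 to 5.21) for Fcgr2b and 1.67% for Fcgr1, beside 1.63% for Lyz2 and 3.61% for Cd68. Fcgr2b thus made up 41.3% of the Fcgr UMIs in that cluster, above its share in any of the 4 TEC groups of the Ccl12 and Ms4a7 cluster. Its percent of the macrophage level was the highest of the genes compared, with an interval that overlaps those of Cd68 (3.17 to 4.11) and Tyrobp (3.62 to 4.10).

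The remaining genes of the pathway were counted in macrophage or monocyte-like cells from lists drawn up by role, and each count can be read against the 23.6% of genes higher, the 6.57% lower and the median log2 ratio of 0.39. Of 2 other Fc receptor genes measured, both were lower in TEC (median -3.55). Fcgrt, the neonatal receptor that recycles IgG, stood at 103 CPM in NEC and at 20.9 CPM in TEC, 4.96-fold lower (3.79 to 6.50). Fcrls, an Fc receptor-like scavenger gene that also led an NEC cluster, was 27.7-fold lower (21.2 to 36.8). So the IgG-recycling receptor stood opposite to the Fcgr genes.

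Receptors that signal through Fcer1g went mostly with it, with 4 of 5 higher and 1 lower (median 1.30). Clec4n, which encodes the fungal receptor Dectin-2, stood at 35.9 CPM in NEC and at 960 CPM in TEC, 26.8-fold higher (19.8 to 37.2), and the activating receptor gene Pira2 was 3.25-fold higher. Clec4b1 was 4.28-fold lower. Of 14 receptors that use Tyrobp, 8 were higher and 1 lower (median 1.09). Clec5a was 12.6-fold higher (6.06 to 31.6) and Klrk1, the NKG2D gene of NK and T cells, 9.78-fold higher. This stood beside the higher T-cell markers given above and 10 NK markers. Those summed to 20.5 CPM in NEC, with Ncr1 and Prf1 at 0, and to 289 CPM in TEC, with Ncr1 at 0. The Klrk1 ratio ran from 8.05 to 45.9 over 16 other settings. Among these were the ones without Cd3-holding cells and without the Nkg7 and Cd3g cells. Trem2 was 2.42-fold higher, but 1.47-fold in the Ccl12 and Ms4a7 cells of TEC against the Retnla and Cd209f cells of NEC. Treml4 was 2.62-fold lower, and turned to 5.60-fold higher without the Ace and Treml4 cluster.

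Of 7 genes measured from a list of other ITAM or activating adaptors, 5 were higher and 1 lower (median 1.98). That list also held Cd37 and the lectin-like receptor genes Clec7a and Clec2d, so the count is not of adaptors alone. Among the higher genes were the T-cell genes Cd3g (21.6-fold) and Cd3d (5.97-fold). Without the Nkg7 and Cd3g cells the Cd3d ratio was 1.29. Cd37, a tetraspanin gene, was 2.61-fold lower. Among 6 Src and Syk family kinases 2 were higher and 1 lower (median 0.39). Lck, the T-cell kinase, was 4.71-fold higher (2.10 to 13.1), while Syk, which binds phosphorylated ITAMs, had a ratio of 0.754 (0.632 to 0.905) and Lyn 1.40 (1.19 to 1.64). Fyn was 2.13-fold lower, and 2.38-fold higher in the comparison of Ccl12 and Ms4a7 with Retnla and Cd209f cells. Of 22 genes that relay ITAM signals 4 were higher and 1 lower (median 0.28), close to the shares over all genes. Vav1 was 3.21-fold and Lat2 2.42-fold higher, and Blnk, an adaptor best known from B cells, was 7.91-fold lower (5.734 to 11).

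On the inhibitory side, 11 of 18 ITIM receptor genes were higher and 2 lower (median 1.42). Cd72 was at 191 CPM in TEC and had 1 UMI in NEC, a ratio of 224 (40.1 to 8851). Milr1 was 7.16-fold higher (4.546 to 11.98). Siglecg and Ceacam1 were 2.28-fold and 2.19-fold lower, and Siglecg turned to 3.07-fold higher against the Retnla and Cd209f cells. The phosphatases did not move as a group, with 1 of 15 higher and 2 lower (median 0.07). Inpp5d, the SHIP1 gene that FcgRIIb works through, stood at 47.9 CPM in NEC and at 50.3 CPM in TEC (ratio 1.05, 0.784 to 1.43), while Ptpn6, the SHP-1 gene, was at 38.5 and 150 CPM, 3.90-fold higher (2.88 to 5.39). Ptpn11 was 2.09-fold and Ubash3b 2.30-fold lower. Fcgr2b and most ITIM receptor genes were thus higher and Inpp5d was within counting error of equal, although the Inpp5d ratio was 2.03 (1.18 to 3.78) with at least 1000 genes and at most 5% mitochondrial UMIs per cell and 1.91 (1.23 to 3.10) without the Ace and Treml4 cluster.

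Among 17 genes of phagocytosis and antibody-dependent uptake, 6 were higher and 2 lower (median 0.38). The scavenger receptor gene Msr1 was 6.52-fold higher (5.003 to 8.641) and Axl, which binds apoptotic cells, 3.83-fold. Cd36 was 2.60-fold and Dock2 2.18-fold lower.

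The genes whose level over 11 sums of cells (class by library, 5174 genes compared) was most like that of a member were named by Pearson's r, given as a description since the sums share 2 libraries. For Fcgr1 these were Slfn4 (r = 0.984), Ms4a6d (0.983) and Clec4n (0.979), and for Fcgr4 Ly6i (0.979), Cd300ld (0.979) and Msr1 (0.978). Fcgr3 was closest to Clec4e (0.991), Clec4a2 (0.983) and Pilra (0.982). Fcgr2b had lower values, with Lat2 at 0.945 and Il10ra at 0.941. Fcer1g was closest to Lilr4b (0.968) and Tyrobp to Cyba (0.960).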

How the data were processed

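The deposited table holds raw UMI counts for 2806 cells, per the file headers marked control (taken as NEC) or tumor (taken as TEC). Cell Ranger 2.0.2, STAR 2.5.1b, Seurat and mm10 are named in the submitters' processing notes. Here the counts were used as the authors deposited them. Cells needed 500 genes, 1000 UMIs and at most 10% mitochondrial UMIs, and Scrublet calls (7 NEC, 3 TEC) were removed. Clustering used scanpy 1.11.5 with 2000 variable genes, 30 principal components, 15 neighbors and Leiden resolution 0.8 (0.3 within the Ccl12 and Ms4a7 cluster). The 6 members and 151 list genes were left out of the variable genes. A class was named from 3 raised markers. UMIs were summed per class and library, and ratios were computed for genes with at least 50 UMIs over both sums, with exact Poisson or Clopper-Pearson 95% intervals, which cover counting error only. A sum of 0 was set to 3 counts. The contrast was checked on simulated data. Genes were named as the members, up to 2 per direction from each gene list by interval bound, 7 fixed genes and the 3 nearest in pattern per member. Some genes that this rule names are not reported here. Members and lists were chosen with earlier results of these data known. Alternatives changed the filter, doublet calls, clustering, gating, depth, scaling and minimum. Sequences come from GENCODE and RefSeq on GRCm38. UMIs per cell ran from 1157 to 18892 in NEC and from 6376 to 184252 in TEC.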

Additional observations from a re-analysis of the deposited data

How the results depend on the processing

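No paired analysis was possible because each group is 1 library. A value was held to be kept if its direction and call stayed or it moved within its counting interval. Counts of genes were held to be kept if they stayed within a fixed fold. Of 187 values that answer a comparison, under alternatives fixed at the start, 172 were kept. Under alternatives chosen after seeing the data 35 of 44 were. Of the other values (single genes, levels and shares) 830 of 1033 and 169 of 185 were kept, with 10 and 5 reversed. The stricter filter (1000 genes, 5% mitochondrial UMIs) gave a Fcgr2b share of 33.2% in NEC and 22.3% in TEC (difference -10.9 points) and 6.00 and 3.49 adaptor UMIs per Fcgr UMI. Setting Retnla and Cd209f cells against Ccl12 and Ms4a7 cells gave 36.9% in NEC (-13.4 points), 4.62 adaptor UMIs, and ratios of 1.96 (Fcgr2b), 1.69 (Fcgr3) and 2.07 (Tyrobp). Without the Ace and Treml4 cluster the NEC share was 34.0% (-10.4 points) with 6.24 adaptor UMIs. The TEC share was 21.9% with doublet calls kept and 21.3% when gated, and Leiden resolution 0.4 gave 3.88 adaptor UMIs in TEC. TMM-type scaling put Fcgr3 at 1.85. Of all genes, 1580 were higher and 441 lower, 562 and 165 after thinning, while 668 were lower with TMM-type scaling and 768 with a minimum of 10 UMIs. Of list genes, 41 were higher and 13 lower, and 27 and 5 after thinning. Reversed ratios were, in gated dendritic-like cells, 0.431 (Fcer1g), 0.468 (Fcgr2b), 0.317 (Fcgr3) and 0.314 (Tyrobp). With Retnla and Cd209f against Ccl12 and Ms4a7 cells Fyn was at 2.38, Siglecg at 3.07, Treml4 at 1.34 and Inpp5d at 0.944. Treml4 was at 7.20 with the stricter filter, 1.01 with cells of at least 4000 UMIs and 5.60 without the Ace and Treml4 cluster. Inpp5d was at 0.883 (TMM), 0.819 (gated), 0.908 (thinned) and 0.796 (mean of cells), each within counting error of 1, but at 2.03 with the stricter filter. The cause of these shifts was not tested. Depth limits the NEC values most, with 22 Fcgr1 and 40 Fcgr4 UMIs, and 28 cells for the balance per cell.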
